A study of Mus musculus with 12 samples.

Results

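The metallothionein genes Mt1 and Mt2, the zinc-sensing transcription factor gene Mtf1 and 5 genes for zinc or manganese transporters (Slc30a1, Slc30a10, Slc39a4, Slc39a8 and Slc39a14) were examined in livers of mice that had developed with or without enough maternal vitamin D. The 8 genes were chosen by name, with earlier results of these data known, from the 52636 genes in the count files. All 8 passed the filter of a mean count of at least 12 that left 12453 genes for testing. Each library came from the liver of 1 male C57Bl/6J offspring aged 16 weeks, and 6 mice belonged to each group. The dams of VDD-F1 mice ate a vitamin D deficient diet before mating and through pregnancy and were given calcium gluconate, while the dams of VDS-F1 mice ate a matched sufficient diet. All dams ate the sufficient diet after delivery, and all offspring ate it after weaning, so the groups shared their diet from weaning. The study notes that serum vitamin D recovers only some time after such a diet change, so exposure also differed in early life after birth. Calcium gluconate went with the deficient diet, and the 2 cannot be told apart here. The labels do not give the litter of a mouse, so p-values measure the spread between these mice, some of which may share a dam.

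Metallothioneins are small cysteine-rich proteins that bind zinc, copper and cadmium in the liver cell, and their genes are among the most responsive to metals, glucocorticoids and inflammation. Free zinc activates Mtf1, which binds metal response elements in the promoters of the metallothionein genes and of Slc30a1. Slc30 proteins move zinc or manganese out of the cytoplasm, and Slc39 proteins move these metals into it, so the members cover storage, sensing, export and uptake.

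The files count fragments per gene, and the value used here is the reverse-strand count scaled to CPM (counts in every 1e+06) with edgeR's TMM library sizes. Each library held between 14275793 and 20815066 counted fragments, with a median of 16383624. VDS6 had 11.1% of its fragments outside annotated genes, and the lowest library had 2.52%. Hepatocyte markers (7 of 8 matched) summed to between 79633 and 109687 CPM, and pancreatic acinar markers to at most 0.884 CPM. The diets were compared with the quasi-likelihood test of edgeR, and p-values were adjusted by Benjamini-Hochberg over all 12453 genes. A gene was called a differentially expressed gene (DEG) at an adjusted p-value under 0.05 with a log2 fold change above 1 or below -1. In these bulk samples, fewer cells of a type and less RNA per cell cannot be told apart.

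The promoters of the metallothionein genes and of the zinc exporter gene Slc30a1 are shown because they are the members that the metal sensor is known to act on. Sequences are from RefSeq on GRCm38.p6 and stop before the RefSeq or the GENCODE start of the gene, whichever comes first, with capitals marking the core of the metal response element. The core was searched on both strands as TGCACNC or TGCGCNC. The Mt1 stretch is chr8:94178839-94179081, that of Mt2 is chr8:94172368-94172617 and that of Slc30a1 is chr1:191906531-191906766, all on the plus strand.
Mt1: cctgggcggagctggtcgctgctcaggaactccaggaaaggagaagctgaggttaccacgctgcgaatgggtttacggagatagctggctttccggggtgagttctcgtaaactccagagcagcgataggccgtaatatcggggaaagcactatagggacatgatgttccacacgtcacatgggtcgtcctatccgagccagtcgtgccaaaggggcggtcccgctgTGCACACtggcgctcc
Mt2: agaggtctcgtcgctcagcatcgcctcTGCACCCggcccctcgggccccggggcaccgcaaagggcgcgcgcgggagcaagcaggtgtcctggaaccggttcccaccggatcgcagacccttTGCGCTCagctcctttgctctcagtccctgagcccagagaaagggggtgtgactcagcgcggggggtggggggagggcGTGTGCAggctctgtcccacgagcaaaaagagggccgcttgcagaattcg
Slc30a1: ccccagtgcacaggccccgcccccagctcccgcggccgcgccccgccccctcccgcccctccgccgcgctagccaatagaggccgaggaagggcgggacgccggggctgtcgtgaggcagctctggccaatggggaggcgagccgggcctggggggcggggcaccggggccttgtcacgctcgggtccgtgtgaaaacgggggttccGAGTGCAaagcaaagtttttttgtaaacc
Within the whole window, from 250 bases before the RefSeq start to 50 bases after it, the core occurred 3 times at Mt1, 4 times at Mt2, 2 times at Slc30a1, 3 times at Slc30a10 and 0 times at Mtf1. Of the 3 matches at Slc30a10, a pair overlapped on opposite strands. Slc39a8 had 2 windows, with 0 matches in one and 1 in the other, and Slc39a4 and Slc39a14 are not in the promoter table. Of 32851 promoter windows, 25.7% held at least 1 match and 1.97% held at least 3. Counting the RefSeq start as 0, the only Mt1 match before the start lay between positions -23 and -17. The Mt2 matches before the start began at -223, -128 and -50. TGACNNNGC, the core of the antioxidant response element, occurred 1 time each at Mt2, at Slc30a1 and in 1 of the Slc39a8 windows, and 12.4% of all windows held it. A match describes letters in the window and does not show binding, and sequence beyond the window was not searched.

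Both metallothionein genes had their highest levels in VDD-F1 livers, but neither passed the thresholds in the 12 mice with edgeR, the test used throughout unless another is named. With DESeq2, also on the 12 mice, Mt1 passed them and Mt2 did not. The same held with a replicate block, but that block pairs mice by replicate numbers that only name them. With edgeR, of all genes tested, 0.0402% were DEGs in this comparison, and 0 of the 8 members were. An unadjusted p under 0.05 was found for 15.8% of all genes and for 5 of the 8 members, with Mt1 and Mt2 higher and Mtf1, Slc30a1 and Slc39a14 lower in VDD-F1. Of all genes, 9.55% had such a p and a higher level in VDD-F1, and 6.29% had one and a lower level. The 8 genes were chosen with earlier results of these data known, and Mt1 and Mt2 varied together within VDD-F1. The count of members is therefore a description and does not show that they changed more often than other genes.

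Mt1 (ENSMUSG00000031765.8, chromosome 8, 94179082 to 94180327 on the plus strand of GRCm38) encodes one of the 2 metallothioneins of the liver. Its level in VDD-F1 mice was 20.4 CPM at the lowest, 23.8 at the median and 157 at the highest. In VDS-F1 mice it was 5.84 CPM at the lowest, 12.3 at the median and 27.9 at the highest. VDD2 and VDD1 stood above all other mice, the latter with 53.5 CPM, and the other 4 VDD-F1 mice lay between 20.4 and 24.9 CPM. All 6 VDD-F1 mice were above the VDS-F1 median, and the groups overlapped only through VDS2, the highest VDS-F1 mouse. The VDD-F1 mean was 49.9 CPM ± 53.8 (SD, n = 6), and the VDS-F1 mean was 13.5 CPM ± 7.52 (SD, n = 6). The log2 fold change was 1.88 with a standard error of 0.53, a 3.69-fold difference, and edgeR's adjusted p was 0.118. An exact permutation test on log2 CPM, two-sided over 924 splits, gave an unadjusted p of 0.0108, where 0.00216 is the smallest possible. Over all alternatives of the fit the adjusted p from edgeR, DESeq2 or voom ranged from 0.00388 to 0.9998.

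VDD2 carried much of the estimate for Mt1. It had 5.49 times the mean level of the other 5 VDD-F1 mice, and without it the log2 fold change was 1.08 with a standard error of 0.35. The adjusted p from edgeR was then 0.220. With DESeq2's Wald test on all 12 mice Mt1 was a DEG, with an adjusted p of 0.0395 and a log2 fold change of 1.89, where 2.03% of all genes were DEGs. The direction was the same in all of the alternatives run, with log2 fold changes from 1.05 to 2.23.

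Mt2 (ENSMUSG00000031762.7, chromosome 8, 94172664 to 94173568, plus strand), the neighbouring gene, encodes the other main metallothionein of the liver. VDD-F1 mice had 3.98 CPM at the lowest, 7.29 at the median and 61.4 at the highest. VDS-F1 mice had 0.344 CPM at the lowest, 2.36 at the median and 8.79 at the highest. The same mice marked both ends as for Mt1, with VDD2 highest, VDD1 next at 22.2 CPM and VDS3 lowest, and VDS2 was again the VDS-F1 mouse inside the VDD-F1 range. VDS3 held only 5 Mt2 fragments, so its level is known with little precision. The log2 fold change of Mt2 was 2.45 with a standard error of 0.74, a 5.48-fold difference, and edgeR's adjusted p was 0.133. The exact permutation test gave an unadjusted p of 0.0238 for Mt2. DESeq2 gave an adjusted p of 0.0523 for it. Without VDD2, which had 6.77 times the mean of the other VDD-F1 mice, the log2 fold change of Mt2 was 1.48 and edgeR's adjusted p was 0.309. Without VDS2 the fold changes were larger than with it, at 2.23 for Mt1 and 3.06 for Mt2 on the log2 scale.

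**Figure D1:**
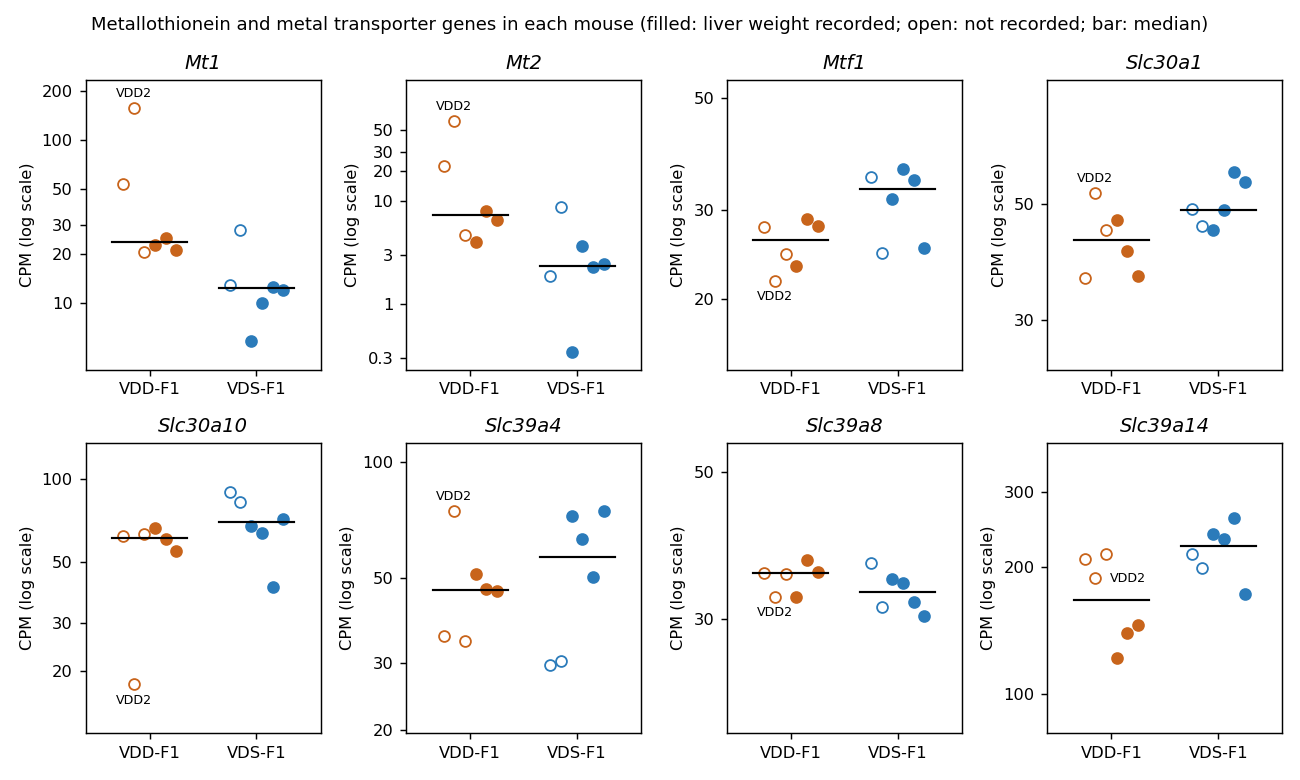
Level of each of the 8 genes in CPM on a log axis, with 1 point per mouse, VDD-F1 on the left and VDS-F1 on the right of each panel. Bars are group medians and filled points are mice whose liver weight was recorded. VDD2 is the highest mouse for Mt1, Mt2 and Slc39a4 and the lowest for Mtf1 and Slc30a10, while the Slc39a8 levels of the 12 mice lie between 30.3 and 36.9 CPM.

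Mt1 and Mt2 varied together within VDD-F1. On log2 CPM over the 6 VDD-F1 mice, Pearson's r was 0.973 with an exact permutation p of 0.00972, and 0.0194 after adjustment over both groups. Spearman's rho was 0.829 with an exact permutation p of 0.0583. Without VDD1 and VDD2, the 2 mice farthest from the median of Mt1, r was 0.494, so the relation in VDD-F1 rests on those mice. In VDS-F1, r was 0.900 with an exact permutation p of 0.0667 and rho 0.429 with an exact permutation p of 0.419. Without VDS2 and VDS3, r in VDS-F1 was -0.98, so the VDS-F1 relation rests on those mice too.

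Mt1 made up most of the metallothionein counts in every mouse. Its share of the Mt1 plus Mt2 counts in VDD-F1 was 76.8% ± 5.53 (SD, n = 6), against 83.1% ± 7.70 (SD, n = 6) for VDS-F1. The share was lowest in VDD1, at 70.7% of 1199 counts (95% Wilson interval 68.1% to 73.2%). It was highest in VDS3, at 94.4% of 90 counts (95% Wilson interval 87.6% to 97.6%). These intervals cover counting error only. The difference between the groups was -6.27 percentage points, with an exact permutation p of 0.132 (two-sided), so the shares did not differ beyond the spread between mice. Without VDS3, whose share rests on 90 counts, the difference was -4.004 points, and without VDS4 it was -8.26 points. No counts of Mt3 beyond 1 fragment, in VDD6, and none of Mt4 were present in the 12 libraries.

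**Figure D2:**
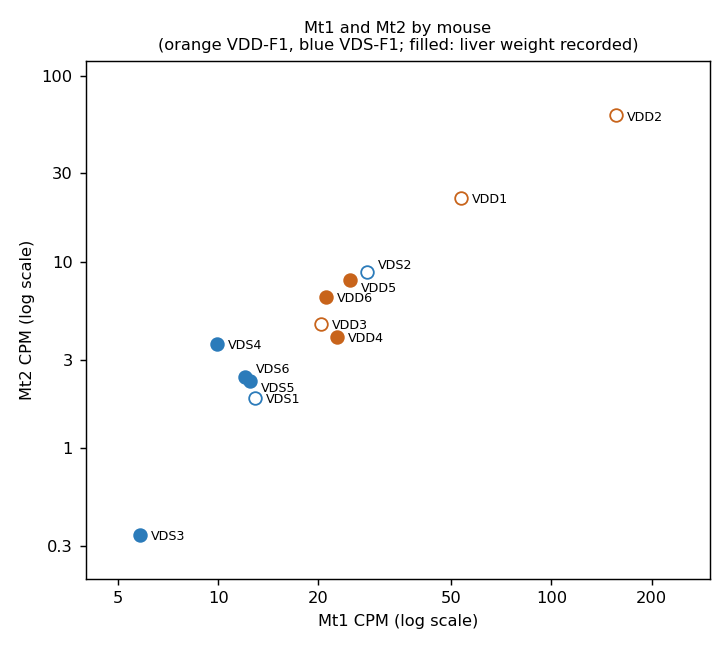
Mt2 level against Mt1 level in CPM, both on log axes, with 1 labelled point per mouse (orange VDD-F1, blue VDS-F1, filled where a liver weight was recorded). VDD2 and VDD1 lie at the upper end, VDS3 lies at the lower end with 5.84 CPM of Mt1 and 0.344 CPM of Mt2, and VDS2 lies among VDD-F1 mice.

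Mtf1 (ENSMUSG00000028890.13, chromosome 4, 124802104 to 124849800, plus strand) encodes the transcription factor that senses zinc. Its level was 21.8 CPM at the lowest, 26.2 at the median and 28.8 at the highest in VDD-F1 mice. In VDS-F1 it was 24.7 CPM at the lowest, 33.0 at the median and 36.3 at the highest. No VDD-F1 mouse reached the VDS-F1 median, and 4 VDS-F1 mice lay above every VDD-F1 mouse, while VDS2 and VDS6 lay within the VDD-F1 range. The log2 fold change of Mtf1 was -0.28 with a standard error of 0.12, edgeR's adjusted p was 0.264, and the exact permutation p was 0.0563. Over the 12 mice the highest Mtf1 level was 1.67 times the lowest, where the highest Mt1 level was 26.8 times the lowest.

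Among the exporters, Slc30a1 (ENSMUSG00000037434.7, chromosome 1, 191906767 to 191913247, plus strand) encodes the zinc exporter of the plasma membrane. Its level ran from 36.2 to 52.5 CPM in VDD-F1, with a median of 42.7. In VDS-F1 it ran from 44.7 to 57.8 CPM, with a median of 48.9. Only VDD2 among VDD-F1 mice was above the VDS-F1 median, and 4 VDD-F1 mice were below the lowest VDS-F1 mouse. The log2 fold change of Slc30a1 was -0.22 with a standard error of 0.10, edgeR's adjusted p was 0.313, and the exact permutation p was 0.0563. Slc30a1 and the metallothionein genes, which are known targets of Mtf1, had estimates of opposite sign.

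Slc30a10 (ENSMUSG00000026614.6, chromosome 1, 185454848 to 185468762, plus strand) encodes the exporter that moves manganese out of hepatocytes. In VDD-F1 it was 17.95 CPM at the lowest, 61.2 at the median and 66.0 at the highest. In VDS-F1 it was 40.6 CPM at the lowest, 69.7 at the median and 89.7 at the highest. The lowest mouse was VDD2, and the other 5 VDD-F1 mice lay between 54.6 and 66.0 CPM, 3.41 times its level on average. The log2 fold change of Slc30a10 was -0.36 with a standard error of 0.26 and an edgeR adjusted p of 0.528. Without VDD2 it was -0.18.

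Among the importers, Slc39a14 (ENSMUSG00000022094.15, chromosome 14, 70303469 to 70351425, minus strand) encodes the main importer of manganese, zinc and non-transferrin-bound iron of the hepatocyte and had the highest count of the 8 genes. VDD-F1 mice had 122 CPM at the lowest, 167 at the median and 215 at the highest. VDS-F1 mice had 172 CPM at the lowest, 223 at the median and 261 at the highest. The VDD-F1 mice fell into a lower and a higher trio. VDD4, VDD5 and VDD6 lay between 122 and 146 CPM, below all VDS-F1 mice, and VDD1 to VDD3 lay between 188 and 215 CPM, inside the VDS-F1 range. The log2 fold change of Slc39a14 was -0.37 with a standard error of 0.15, edgeR's adjusted p was 0.243, and the exact permutation p was 0.0433. With voom and sample quality weights in limma, Slc39a14 had a log2 fold change of -0.56 and an adjusted p of 0.0323, where 1.90% of all genes had an adjusted p under 0.05 and a lower level in VDD-F1.

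Slc39a4 (ENSMUSG00000063354.6, chromosome 15, 76612383 to 76617384, minus strand) encodes a zinc importer best known from the intestine. Its level was 34.1 to 74.7 CPM in VDD-F1, with a median of 46.3, and 29.5 to 74.5 CPM in VDS-F1, with a median of 56.5. The ranges of the groups overlapped almost fully, and the log2 fold change was -0.15 with a standard error of 0.25 and an edgeR adjusted p of 0.820. Single mice moved this estimate by much of its size, from -0.32 without VDD2, -0.27 without VDS1 and -0.27 without VDS2 to -0.07 without VDD1, -0.07 without VDD3, -0.10 without VDS4, -0.04 without VDS3 and -0.03 without VDS6. Slc39a8 (ENSMUSG00000053897.15, chromosome 3, 135825279 to 135888572, plus strand) encodes an importer that carries manganese and zinc. It was the steadiest of the 8 genes, with its highest level 1.22 times its lowest, a log2 fold change of 0.06 with a standard error of 0.07 and an edgeR adjusted p of 0.706.

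**Figure D3:**
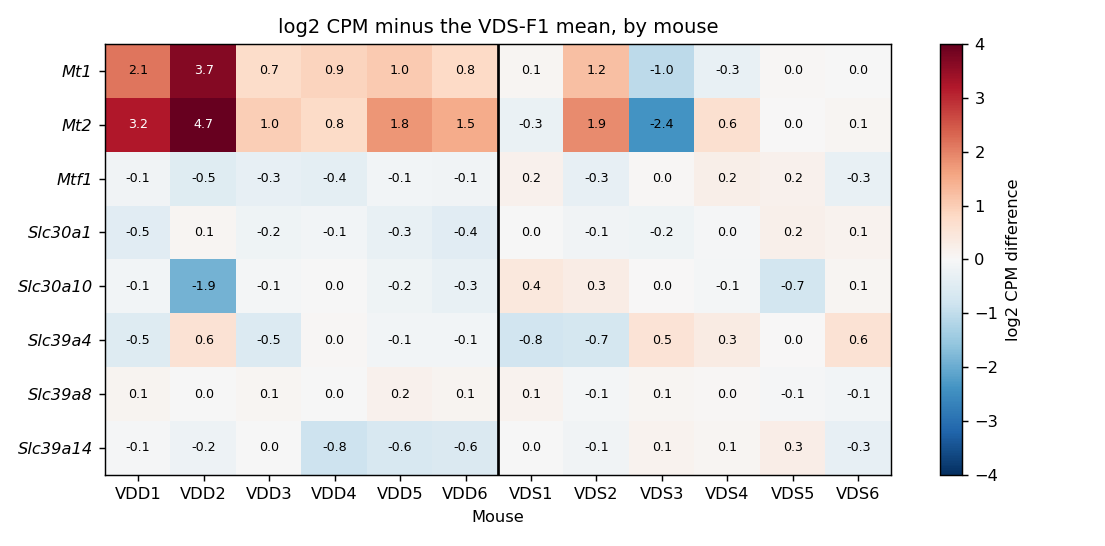
Difference of log2 CPM from the VDS-F1 mean for the 8 genes (rows) in the 12 mice (columns), printed in each cell and coloured from blue (lower) to red (higher), with a vertical line between VDD-F1 and VDS-F1. VDD2 has the largest positive differences for Mt1 and Mt2 and the largest negative one for Slc30a10, and VDD4 to VDD6 have the 3 lowest values of Slc39a14.

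To compare the genes with each other, CPM was divided by the length of the principal transcript in kilobases. In VDS-F1 the median levels per kilobase were 45.3 for Slc39a14, 22.3 for Mt1, 20.5 for Slc39a4, 11.9 for Slc30a10, 9.33 for Slc30a1, 9.31 for Slc39a8, 4.62 for Mt2 and 4.33 for Mtf1. Within that order, Mt1 exceeded Slc39a4 in 3 of 6 VDS-F1 mice, and Slc39a4 exceeded Slc30a10 in 4 of 6. Slc30a1 exceeded Slc39a8 in 2 of 6 and Mt2 exceeded Mtf1 in 3 of 6, so these neighbours often changed places between mice. The order was not tested, in VDS-F1 or in VDD-F1. In VDD-F1 the order was led by Mt1 with a median of 43.4 per kilobase, above Slc39a14 at 33.8 in 5 of 6 mice. Mt2 had a median of 14.3 there against 10.5 per kilobase for Slc30a10, but it exceeded Slc30a10 in only 4 of 6 mice. Slc39a4 exceeded Mt2 in 4 of 6 and Slc30a10 exceeded Slc39a8 in 3 of 6, so these neighbours often changed places too. Mtf1 was last at 3.44. The order depends on the length used. With the length of all exons joined, Mt1 in VDS-F1 had a median of 9.84 per kilobase, below those of Slc39a4 and Slc30a10. Slc30a10 exceeded Mt1 there in only 4 of 6 mice.

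A liver weight is on record in the study's supplement for 7 of the 12 mice, namely VDD4, VDD5, VDD6 and VDS3 through VDS6. What else separates the mice with and without a recorded weight, such as litter or date, is not given in the sources used here, so these are sets of mice of unknown meaning. The diet comparison was repeated within these 7 and within the other 5. In the 7 mice with a weight, Mt1 lay between 21.1 and 24.9 CPM in the 3 VDD-F1 mice and between 5.84 and 12.5 CPM in the 4 VDS-F1 mice, without overlap. Its log2 fold change was 1.19 with a standard error of 0.21 and an edgeR adjusted p of 0.00388, and Mt1 was a DEG, as were 4.33% of all genes in these mice. Mt2 did not overlap either, with 3.98 to 8.05 CPM against 0.344 to 3.64 CPM, and its log2 fold change was 1.49 with a standard error of 0.46, but it missed the threshold with an edgeR adjusted p of 0.0633. Slc39a14 was lower without overlap, with 122 to 146 CPM against 172 to 261 CPM and a log2 fold change of -0.74 (edgeR adjusted p of 0.00438). The exact permutation p within these mice was 0.0286 for Mt1, the smallest that their 35 splits allow, and 0.0571 for Mt2 and for Slc39a14. An adjusted p under 0.05 was found with a higher level in VDD-F1 for 5.87% and with a lower level for 5.11% of all genes in these mice. Non-overlapping groups were common among all genes there, with 11.9% higher and 11.5% lower in VDD-F1. Over the 12 mice, where 0.610% of genes were higher and 0.570% lower without overlap, 0 members had groups that did not overlap.

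In the 5 mice without a weight, the Mt1 levels of VDD1 to VDD3 ran from 20.4 to 157 CPM and those of VDS1 and VDS2 from 12.9 to 27.9 CPM. Slc39a14 had a log2 fold change of -0.02 there, and VDS1 and VDS2 lay within the range of VDD1 to VDD3. Slc39a4 was higher in VDD-F1 without overlap, with 34.1 to 74.7 CPM against 29.5 to 30.4 CPM, and Slc30a10 was lower without overlap. Among all genes 8.97% were higher and 9.49% lower without overlap in these 5 mice, and 0 of 12541 genes passed edgeR's threshold. An unadjusted p under 0.05 was found for 473 genes (3.77%).

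The difference of the diet effect between the sets was tested as an interaction. Slc39a14 had a difference of -0.72 on the log2 scale (standard error 0.21, edgeR adjusted p of 0.294), and Slc39a4 one of -1.12 (standard error 0.37, edgeR adjusted p of 0.366). Both had an unadjusted p under 0.05 from edgeR, of 0.0047 and 0.00991, but 0 of the 8 members passed after adjustment, where 0.0883% of all genes did. With DESeq2 the adjusted p was 0.0638 for Slc39a14 and 0.142 for Slc39a4. With the diets held equal, the log2 difference of mice with a weight from mice without one was -1.42 for Mt1 (adjusted p from edgeR of 0.0932) and -1.84 for Mt2 (adjusted p from edgeR of 0.146), and neither passed the threshold. VDD1, VDD2 and VDS2, the mice with the most Mt1, had no recorded weight, but VDD3 without a weight, at 20.4 CPM, lay below VDD4 to VDD6 with one, and VDS1 had 12.9 CPM against at most 12.5 CPM in VDS3 to VDS6. The threshold was passed by 2.46% of all genes in that comparison and by 0 members, while Mt1 and Mt2 had unadjusted p-values of 0.00328 and 0.0077 from edgeR.

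**Figure D4:**
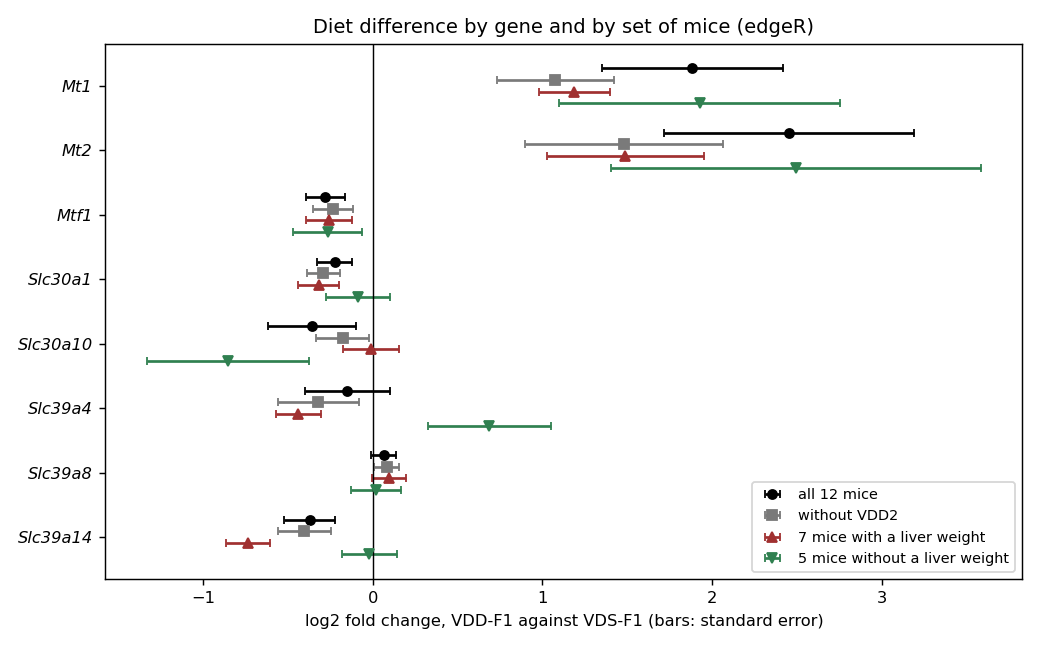
Log2 fold change of VDD-F1 against VDS-F1 from edgeR for the 8 genes, with standard errors as bars, in all 12 mice, without VDD2, in the 7 mice whose liver weight was recorded and in the other 5. Mt1 and Mt2 lie above 0 in every fit, Slc39a14 moves from -0.74 in the 7 mice to -0.02 in the 5 mice, and Slc39a4 lies on opposite sides of 0 in those sets.

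The other genes of zinc handling had no adjusted p under 0.05 in the 12 mice. Of the other Slc30 transporter genes 5 of 8 were expressed highly enough to test, and 0 of them had an unadjusted p under 0.05. The median log2 fold change of these exporters was -0.05 (0.03 without VDD2), and that of all genes was 0.0041. The smallest p belonged to Slc30a5, which supplies zinc to the secretory pathway, at a log2 fold change of -0.20 and an edgeR adjusted p of 0.321. Of the other Slc39 transporter genes 9 of 11 were tested, 0 had an unadjusted p under 0.05, and the median log2 fold change was 0.08. The smallest p there belonged to Slc39a5, at a log2 fold change of 0.74 and an edgeR adjusted p of 0.549, and its log2 fold change was 0.23 without VDD3.

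Of 4 other genes described as Mtf1 targets, all 4 had positive log2 fold changes, with a median of 0.38, and 1 had an unadjusted p under 0.05. The count of positive values was 3 of 4 when VDD4, VDD6 or VDS1 was left out. The gene with that p was Csrp1, a LIM-domain protein gene whose VDD-F1 mean was 16.3 CPM ± 7.88 (SD, n = 6) against 9.18 CPM ± 1.38 (SD, n = 6) for VDS-F1. Its log2 fold change was 0.82, and its adjusted p was 0.125 with edgeR and 0.0342 with DESeq2. VDD2 was again the highest mouse for Csrp1, with 31.6 CPM. Without VDD2 the log2 fold change of Csrp1 was 0.52 with an edgeR adjusted p of 0.188, and without VDD1 it was 0.95 with an edgeR adjusted p of 0.0331. Among 13 genes of manganese and copper handling 4 had positive and 9 negative log2 fold changes (6 and 7 without VDD1, VDD3 or VDS5), and 1 had an unadjusted p under 0.05. This was Ccs, the copper chaperone of superoxide dismutase, with 71.3 to 86.5 CPM in VDD-F1 and 88.7 to 107 CPM in VDS-F1. Its groups did not overlap, its log2 fold change was -0.30, and its adjusted p was 0.0969 with edgeR, 0.0414 with edgeR without VDD1 and 0.00963 with DESeq2.

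Metallothionein genes also respond to glucocorticoids, to inflammation and to oxidative stress, and lists for these were read from the same fit. Of 10 glucocorticoid-responsive genes 1 had a higher and 1 a lower level in VDD-F1 at an unadjusted p under 0.05, and 0 had an adjusted p under 0.05. The smallest p was that of Tsc22d3, with a log2 fold change of -0.67 and an edgeR adjusted p of 0.280. In the 7 mice with a weight 3 of the 10 were higher and 0 lower at an adjusted p under 0.05 from edgeR, where 5.87% of all genes were higher. These were Sgk1, Dusp1 and Tat, with log2 fold changes of 1.59, 1.34 and 0.76, while 6 of the 10 had negative values and the median was -0.23. VDD2, the mouse with the most metallothionein RNA, was the lowest of the 12 mice for 4 of these genes (Tsc22d3, Dusp1, Errfi1 and Pck1), a count taken after the values were seen, and for 17.6% of all genes tested. Of 20 acute phase and interleukin-6 response genes 3 had an unadjusted p under 0.05, all higher, while the median log2 fold change of the list was -0.10. The sign of that median depended on the mice and the fit. In the 7 mice with a weight 15 of the 20 had positive log2 fold changes, the median was 0.24, and 6 were higher and 1 lower at an adjusted p under 0.05 from edgeR, against 5.87% and 5.11% of all genes. In the other 5 mice 17 of 20 had negative values, with a median of -0.44. Over the 12 mice the median was 0.12 with voom and 0.03 with a replicate block, and it was 0.07 without VDS1 and 0.05 without VDS2. The smallest p was that of Il1rn, an interleukin-1 receptor antagonist, with a log2 fold change of 1.502 and an edgeR adjusted p of 0.129. With DESeq2 Il1rn was a DEG, as were 2.03% of all genes. VDD2 had 10.5 CPM of Il1rn against 1.68 to 3.16 CPM in the other VDD-F1 mice, and without VDD2 the log2 fold change was 0.81 with an edgeR adjusted p of 0.221. Saa1, a serum amyloid gene, was highest in VDS1 and VDS2, at 225 and 279 CPM, against 12.2 to 51.8 CPM in the other 10 mice. Of 6 targets of Nrf2, the regulator of the antioxidant response, 5 were tested and 1 had an unadjusted p under 0.05, the sulfiredoxin gene Srxn1. VDD2 had 75.2 CPM of Srxn1 against 36.5 to 41.8 CPM in the other VDD-F1 mice, and VDS-F1 mice had 22.2 to 32.5 CPM, so the groups did not overlap. Its log2 fold change was 0.65, and its adjusted p was 0.109 with edgeR, 0.0235 with DESeq2 and 0.0472 with voom. Without VDD2 the log2 fold change of Srxn1 was 0.44 with an edgeR adjusted p of 0.139. The part of these responses in the metallothionein levels was not tested.

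Markers of other liver cells were set beside the metallothionein values, since VDD2 stood apart in several of them. Stellate cell and fibroblast markers, 6 of 6 with a higher mean in VDD-F1, summed to 293 to 891 CPM in VDD-F1 and 278 to 438 CPM in VDS-F1. Cholangiocyte markers, 6 of 6 with a higher mean in VDD-F1, summed to 23.9 to 116 CPM and 27.8 to 51.5 CPM. Kupffer cell and macrophage markers, 4 of 8 with a higher mean in VDD-F1, summed to 128 to 342 CPM and 151 to 280 CPM. By its sums VDD2 was the highest of the 12 mice in these 3 lists and in the 5 lymphocyte markers. The latter summed to 0.527 to 8.93 CPM in VDD-F1 and 0.888 to 2.95 CPM in VDS-F1. Some markers went the other way: Lrat, of stellate cells, was lowest in VDD2, at 12.9 CPM. Of the Kupffer cell markers, Timd4 in VDD2, at 2.30 CPM, lay below every VDS-F1 mouse. Clec4f and Vsig4 in VDD2, at 49.3 and 16.5 CPM, lay below the VDS-F1 means of 58.9 and 18.6 CPM. The other markers of these stellate cell and Kupffer cell lists were highest in VDD2. VDD1, with the second-highest metallothionein levels, had 293 CPM of stellate cell markers and 23.9 CPM of cholangiocyte markers, the lowest VDD-F1 sums. The Kupffer cell and macrophage sum was highest in VDD2, VDS2 and VDD1, at 342, 280 and 212 CPM, which are also the 3 mice with the most Mt1 and Mt2, and VDS4 and VDS3 followed at 210.2 and 208 CPM. Endothelial markers summed to 211 to 248 CPM and 198 to 269 CPM, and neutrophil markers, with Ly6g at or near 0, to 1.81 to 10.02 CPM and 0.481 to 5.79 CPM. The part of these cells in the metallothionein values was not tested.

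The genes whose levels varied most like those of 3 members were found from log2 CPM as deviations from the group means over the 12 mice, as a description. Of the 12452 other genes, Mt2 was the most like Mt1, with r = 0.93 (0.91 and rank 4 without VDD2). Next to Mt1 came Rassf4, Tmem26, H2-Q4, Ddx60 and Pirb, with r between 0.90 and 0.92, and between 0.76 and 0.87 without VDD2. Their ranks without VDD2 were 52, 10, 61, 24 and 81, so their place nearest to Mt1 rests on VDD2. For Slc39a14 they were Igf2r, Azin1, Klf10, Bhlhe40 and Arrdc3, with r between 0.90 and 0.93, and between 0.89 and 0.94 (ranks 5 to 27) without VDD2. For Slc30a10 they were Elovl3, Tardbp, Necab1, Rfxank and Tars, with r between 0.92 and 0.95. Without VDD2, r was 0.92 for Rfxank (rank 6) and at most 0.82 for the other 4 (ranks 49 to 225). Among the members themselves, Mt1 had r = -0.59 with Slc30a10 over the 12 mice and 0.22 without VDD2, so the sign of that relation rests on VDD2.

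The strand of the count decided whether Mt2 could be measured. An antisense gene, Gm45774 (chromosome 8, 94170748 to 94173412, on the opposite strand), overlaps most of Mt2, and STAR discards a fragment that overlaps 2 genes when the strand is ignored. Summed over the 12 libraries, Mt2 had 2270 reverse-strand counts and 50 counts without strand, 2.20% of the former. Gm45774 itself had at most 5 counts in a library, in VDD2. Of the 12453 genes tested, 62 (0.498%) had a count without strand under 10% of the reverse-strand count, and the median gene had 100.3%. Slc30a1 kept 76.9% and Slc30a10 83.3%, where 1700034H15Rik and Gm2061 lie on the opposite strand, and Mtf1 kept 98.0%. On the count without strand Mt2 had a mean of 4.17 and did not pass the filter, while Mt1 kept 100.3% of its count.

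**Figure D5:**
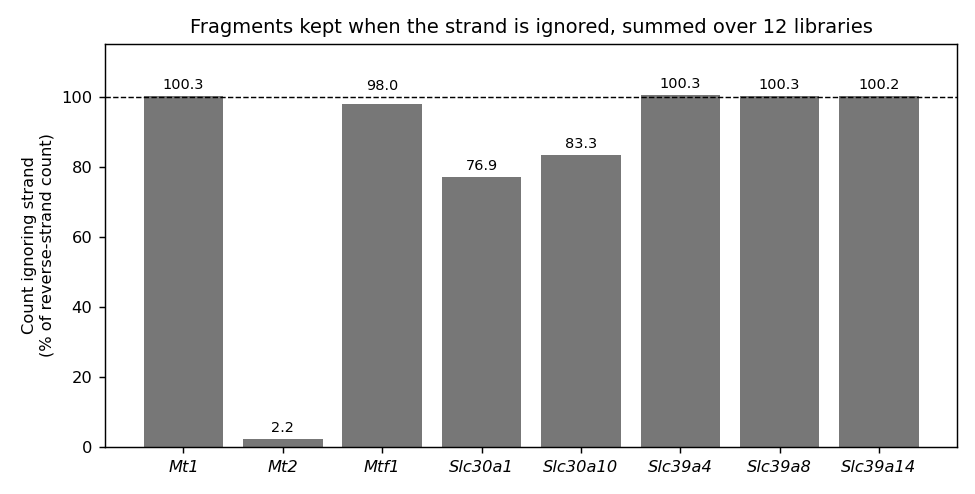
Count that ignores the strand as a percentage of the reverse-strand count for each of the 8 genes, summed over the 12 libraries, as bars from 0, with a dashed line at equality. Mt2 keeps 2.20% of its count, Slc30a1 76.9% and Slc30a10 83.3%, and the other 5 genes keep 98.0% or more.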

How the data were processed

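Total RNA from the liver was sequenced after removal of ribosomal RNA, and after trimming, the authors aligned reads to mm10 (GRCm38) with STAR. They deposited 1 table of raw counts per mouse, in fragments per GENCODE M15 gene, neither normalized nor pooled. The version of STAR is not given in the sources used here. Each table has an unstranded, a forward-strand and a reverse-strand column. The last was analysed because the kit keeps the strand and 92.7% to 95.8% of stranded counts fell there, and the paper names no column. Gene names and positions came from GENCODE M21, to which 52489 of 52636 IDs matched without their version.

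Genes whose mean count reached 12 were scaled by TMM and fitted with edgeR 4.0.16 in R 4.3.3 (quasi-likelihood test in the legacy form, Benjamini-Hochberg adjustment over all genes). The filter and the thresholds follow the study's methods, which name DESeq2. CPM uses the TMM library sizes, and log2 CPM adds a prior count of 2. Single values were compared by exact permutation tests in Python 3.11.15 with SciPy 1.17.1, one test for each of the 8 genes, unadjusted. Alternatives were DESeq2 1.42.0, voom with quality weights (limma 3.58.1), DESeq2's size factors, a robust fit, the count without strand, other filters, a covariate for the set of mice, fits within each set, a replicate block and each mouse left out. The newer form of edgeR, the fit without VDD2 and VDS6, the set effect, the r without VDD2, Dixon's ratio on log2 CPM and the forward-strand counts without VDD5 were added after the data were seen.

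The 8 genes and the gene lists were chosen with earlier results of these data known. Genes named from other lists have an adjusted p under 0.05 in the comparison of the 12 mice, or are otherwise the gene of smallest p. Gm45774, 1700034H15Rik, Gm2061, Saa1, Saa2, Dusp1, Errfi1, Pck1, Sgk1, Tat, Mt3, Mt4, Ly6g, Lrat, Timd4, Clec4f and Vsig4 were named after their values were seen. Genes most like a member are the 5 of highest r. No libraries were duplicates: the counts of 2 mice of a group differed by a chi-square of at least 12.9 per degree of freedom. The fitting scripts were tested on simulated data. The qRT-PCR, the histology and the cell proportions of the study were not analysed here.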

Additional observations from a re-analysis of the deposited data

Results flagged for a closer look

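In VDD-F1, VDD2 stood apart from the other 5 mice by Dixon's criterion on CPM in 3 genes. It was the highest mouse for Mt1, at 157 CPM, and for Mt2, at 61.4 CPM, and the lowest for Slc30a10, at 17.95 CPM. In VDS-F1, VDS2 stood apart as the highest mouse for Mt1, at 27.9 CPM. These are 4 of 18 groups examined, where chance flags about 1 in 20 groups. The scale matters: on log2 CPM, 1 of 16 groups was past the critical value, VDD2 for Slc30a10 (ratio 0.854), and the ratios were 0.527 for VDD2 and 0.496 for VDS2 in Mt1 and 0.375 for VDD2 in Mt2. The 2 metallothionein values of VDD2 come from genes that varied together. The depth of the VDD2 library, 16816772 counted fragments, was within the range of the others.

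Outside the reverse-strand counts, Mt1 had 17 fragments on the forward strand in the 6 VDD-F1 libraries and 1 in the 6 VDS-F1 libraries (exact permutation test, two-sided, unadjusted p = 0.0152, the smallest of 8 such tests). The forward strand held 18 fragments of Mt1 in all, beside 6735 on the reverse strand. Mt1 was also higher in VDD-F1 on the reverse strand, with 271 to 3000 counts in a library against 85 to 473 in VDS-F1. Whether the forward-strand difference goes beyond the reverse-strand one was not tested. The other 7 exact permutation p-values ran from 0.0844 to 0.714. More forward-strand fragments in VDD-F1 were found for 7 of the 8 genes and for 79.7% of the 11620 tested genes with any, so the count of 7 is near the share over all genes. VDD5 held many of them, with 30 of 61 for Slc39a14, 13 of 25 for Slc39a4, 9 of 14 for Slc39a8 and 15 of 34 for Slc30a10, but 3 of 17 for Mt1. Without VDD5, an alternative chosen after the data were seen, Slc39a8 had 5 against 4 and Slc30a10 19 against 18 fragments, and 69.1% of genes had a higher mean in VDD-F1. Over all genes the forward strand held 4.18% to 5.80% of stranded counts in VDD-F1 and 4.22% to 7.27% in VDS-F1.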

How the results depend on the processing

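The direction of Mt1, Mt2, Mtf1, Slc30a1, Slc30a10, Slc39a8 and Slc39a14 was the same in every alternative that gave a value, and Mt2 gave none on the count without strand. Slc39a4 turned positive with the set of mice as a covariate (0.011 on the log2 scale) and in the 5 mice without a weight (0.69). The number of DEGs over all genes was 5, and it was 253 with DESeq2, 252 with voom, 2 with a robust fit, 70 without a filter, 21 with the set as a covariate, 536 in the 7 mice with a weight, 0 in the other 5 mice and 17 with the newer form of edgeR, and it ranged from 0 to 260 when 1 mouse was left out (260 without VDD1, 94 without VDD3, 12 without VDS2, 1 without VDS6 and 0 without VDD4, VDD5, VDD6, VDS3, VDS4 or VDS5). Members past the thresholds were 1 (Mt1) with DESeq2, in the 7 mice and with a replicate block, and 0 in every fit that left out 1 mouse. Members with an adjusted p under 0.05 were 1 with DESeq2, voom and the block and 2 in the 7 mice. Of the 66 tested genes of the other lists, which include the glucocorticoid, acute phase and Nrf2 lists, 1 with DESeq2 (Il1rn) and 3 in the 7 mice (Dusp1, Sgk1 and Saa2) were DEGs, and 5 with DESeq2, 4 with voom and 13 in the 7 mice had an adjusted p under 0.05, with 0 to 3 when 1 mouse was left out (3 without VDD1). Over all genes that threshold was passed by 504 of 12453, 590 of 12453 and 1358 of 12369. In the 7 mice 3 of the 13 came from the lists of metal handling and Mtf1 targets and 10 from the other lists. The correlation of Mt1 and Mt2 in VDD-F1 fell from 0.973 to 0.83 on the count without strand. That count holds few Mt2 fragments, and for this correlation it was scaled without TMM. The cause of this and of the other changes was not tested.

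Replicate numbers only name mice, since the correlations of same-numbered mice ran from -0.08 to 0.10. With them as a replicate block Mt1 was a DEG (log2 fold change 1.57, edgeR adjusted p of 0.0447), and 17 genes were DEGs in all. Mt2 with 5 fragments in VDS3 marks the limit of depth.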
